A study of Mus musculus with 23 samples.

Results

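MHC class I presentation was followed through 10 genes in hippocampal CD11b+ cells from female mice, by selecting the rows of the raw count table with these gene symbols out of 18876 genes. All 10 were among the 18759 genes that passed the filter on low counts (at least 5 counts in at least 3 samples). They were the heavy chains H2-K1 and H2-D1, the light chain B2m, the peptide transporter subunits Tap1 and Tap2, the loading chaperone Tapbp (tapasin), the trimming enzyme Erap1, the immunoproteasome subunits Psmb8 and Psmb9, and the transcriptional activator Nlrc5.

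Class I molecules carry peptides from proteins made inside the cell to its surface, where CD8 T cells inspect them. The proteasome cuts cytosolic proteins, and interferon exchanges its constitutive catalytic subunits for the immunoproteasome subunits. Tap1 and Tap2 form the pump that brings the peptides into the endoplasmic reticulum, Erap1 trims them there, and Tapbp bridges the pump to a heavy chain waiting with B2m. Nlrc5 drives transcription of most of these genes from a shared set of promoter boxes. Microglia are the resident macrophages of the brain, and those near amyloid plaques are known to carry more class I machinery.

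Every mouse carried floxed Slc11a2 alleles, which encode the iron transporter DMT1, and 1 copy of an inducible Cre recombinase (Cre-ERT2) driven by Cx3cr1, a gene of microglia and other myeloid cells, on a mixed 129S;C57BL/6J background. The KD mice were gavaged with tamoxifen (4 mg a day for 5 days at 5 to 6 months) and the Control mice with corn oil, and the drug and the knockdown cannot be told apart. APP/PS1 mice were hemizygous for the amyloid transgenes and WT mice were their littermates, and tissue was taken at 15 to 18 months. There were 6 Control WT, 7 Control APP/PS1, 5 KD WT and 5 KD APP/PS1 libraries, and Control APP/PS1 library 10, which the study removed as an outlier, was left out here, leaving 22.

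Total counts ran from 31128643 to 54872491 per library. Microglial markers summed to between 35360 and 40757 CPM (counts scaled to library size by TMM) in WT libraries and between 26531 and 33224 CPM in APP/PS1 libraries, with no overlap. T and NK cell markers, with 8 of 11 listed genes tested, summed to between 1.99 and 19.1 CPM, and Cd3e, Cd8a and Cd8b1 did not pass the count filter. Counts over the whole Slc11a2 gene in KD and Control libraries differed by less than their SD in WT mice (33.9 ± 4.71 CPM, SD, n = 5, against 34.8 ± 5.08, n = 6). They were higher in KD libraries on average in APP/PS1 mice (56.0 ± 13.3, n = 5, against 42.8 ± 3.90, n = 6). The floxed part was not counted apart here. The study itself reported lost expression over some Slc11a2 exons in the knockdown cells. It also checked the knockdown by RT-qPCR with a primer on the same exons. Choroid plexus markers reached 1920 CPM in Control WT, 765 CPM in KD WT and 481 CPM in KD APP/PS1, and at most 5.39 CPM in Control APP/PS1. Their medians in the same order of groups were 5.14, 51.1, 271 and 1.78 CPM. Border macrophage markers summed to between 186 and 404 CPM in WT libraries and between 71.3 and 164 CPM in APP/PS1 libraries. Endothelial markers summed to between 179 and 377 CPM in Control WT and between 117 and 153 CPM in Control APP/PS1, and to between 153 and 332 CPM in KD WT and between 98.1 and 185 CPM in KD APP/PS1. The part of these marker differences in the results was not tested.

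Libraries also differed in how counts depended on gene length. The length slope, the change in log2 CPM relative to the average library for each doubling of exon length, was between 0.02 and 0.13 in Control WT and between -0.03 and 0.16 in Control APP/PS1. It was between -0.23 and 0.23 in KD WT and between -0.38 and 0.11 in KD APP/PS1, and library 10 had -0.31. KD APP/PS1 libraries 21 and 23 had the lowest slopes of the libraries used (-0.38 and -0.34), so long genes counted low in them.

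The promoters of the class I chains are shown because they hold the boxes through which NF-kB, interferon-regulated factors and Nlrc5 are known to act, and the promoter of Tap1 because it also serves Psmb9. RefSeq entries (GRCm38.p6) matched 8 of the 10 genes; Tap2 and Nlrc5 are named only. The 250 bases before the start are given 5′ to 3′ on the gene's strand, with matches to 6 motifs in capitals, searched on both strands: GGGATTCCC and GGGACTTTC (NF-kB), GAANNGAAA and AAANNGAAA (interferon response), TTCNNNGAA (gamma-activated site) and GATTGG (Y box). The windows are chr17:34000334-34000583 (minus strand) for H2-K1, chr17:35262844-35263093 (plus) for H2-D1, chr2:122147437-122147686 (plus) for B2m and chr17:34187306-34187555 (plus) for Tap1.
H2-K1: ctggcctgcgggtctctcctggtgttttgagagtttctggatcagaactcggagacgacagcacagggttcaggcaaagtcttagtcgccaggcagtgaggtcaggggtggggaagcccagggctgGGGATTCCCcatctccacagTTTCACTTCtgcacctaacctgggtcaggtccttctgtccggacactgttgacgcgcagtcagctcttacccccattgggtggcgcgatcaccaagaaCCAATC
H2-D1: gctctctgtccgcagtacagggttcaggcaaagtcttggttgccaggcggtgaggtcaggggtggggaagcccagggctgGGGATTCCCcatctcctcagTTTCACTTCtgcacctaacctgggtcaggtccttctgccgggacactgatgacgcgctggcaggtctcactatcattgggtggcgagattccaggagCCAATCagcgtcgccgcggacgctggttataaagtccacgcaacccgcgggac
B2m: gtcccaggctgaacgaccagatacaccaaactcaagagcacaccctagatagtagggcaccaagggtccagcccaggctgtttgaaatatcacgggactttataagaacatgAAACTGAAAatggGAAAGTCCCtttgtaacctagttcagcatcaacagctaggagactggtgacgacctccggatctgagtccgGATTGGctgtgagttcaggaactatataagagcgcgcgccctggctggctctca
Tap1: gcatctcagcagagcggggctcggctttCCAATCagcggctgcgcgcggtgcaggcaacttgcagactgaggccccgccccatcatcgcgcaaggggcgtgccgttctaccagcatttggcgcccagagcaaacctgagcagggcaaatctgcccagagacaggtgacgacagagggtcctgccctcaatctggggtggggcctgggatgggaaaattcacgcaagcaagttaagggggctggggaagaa

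The heavy chain promoters of H2-K1 and H2-D1 held the same GGGATTCCC and GAANNGAAA matches, 20 bases apart in start position. GGGATTCCC was in 0.301% and GAANNGAAA in 6.31% of 32851 promoter windows of this length, and both together in 8 windows (0.0244%). Together with GATTGG they were in 4 windows (0.0122%), those of H2-K1, H2-D1, H2-Q6 and H2-Q7, and for H2-K1 at 1 of its 2 annotated starts. B2m held AAANNGAAA (9.37% of windows), GGGACTTTC (0.289%) and GATTGG (14.6%). Tap1 and Psmb9 start 226 bp apart on opposite strands and held GATTGG, and Psmb8 held TTCNNNGAA (7.02%). Tapbp and Erap1 held none of these letters in the window. A match is a description of letters and not a bound site.

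On GRCm39 (GENCODE M39), 7 of the members lie on chromosome 17 within the H2 complex, from Tapbp (chr17:34134873-34148267) and H2-K1 (chr17:34214987-34219321) through the cluster of Psmb9 (chr17:34400960-34406738), Tap1 (chr17:34405996-34416199), Psmb8 (chr17:34416690-34420428) and Tap2 (chr17:34422501-34435829) to H2-D1 (chr17:35481691-35486475). B2m lies at chr2:121977957-121983594, Erap1 at chr13:74787687-74841320 and Nlrc5 at chr8:95160984-95253900. Annotated exons of Tap1 and Psmb9 overlap over 743 bp on opposite strands, and Tapbp exons overlap those of Zbtb22 on the same strand. The strand setting of the counting is not given in the sources used here, so counts in such overlaps are uncertain. Of the 100-base windows of the canonical transcript of H2-D1, 4.61% also occur in other genes, against 0% for H2-K1, B2m, Tap1, Tap2, Erap1, Psmb8, Psmb9 and Nlrc5.

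Per length, B2m had the highest and Nlrc5 the lowest level of the 10 genes in each of the 4 groups. B2m was at 953 ± 88.8 FPKM (CPM per kilobase of annotated exon, SD, n = 6) in Control WT, 1103 ± 78.3 (n = 6) in Control APP/PS1, 856 ± 71.3 (n = 5) in KD WT and 976 ± 131 (n = 5) in KD APP/PS1. The heavy chains followed, and their order on the FPKM scale differed by genotype: H2-D1 was above H2-K1 in Control WT (188 ± 29.2 against 169 ± 34.1) and in KD WT (167 ± 22.6 against 145 ± 37.0), and H2-K1 was above H2-D1 in Control APP/PS1 (310 ± 46.8 against 241 ± 29.8) and in KD APP/PS1 (306 ± 20.4 against 196 ± 59.3). The ranges of the 2 genes overlapped in each group. Within libraries, H2-K1 was above H2-D1 in every APP/PS1 library used. H2-D1 was above H2-K1 in every WT library except Control WT library 6. Psmb8, Tapbp and Psmb9 came next in every group (74.2 ± 6.50, 58.1 ± 4.70 and 23.6 ± 2.47 FPKM in Control WT), then Tap2, Tap1 and Erap1 (15.8 ± 2.09, 13.7 ± 1.31 and 9.15 ± 0.58). Neighbours in this order overlapped between Tap2 and Tap1 in 3 of the 4 groups, and Nlrc5 stayed apart from Erap1 in all 4.

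**Figure D1:**
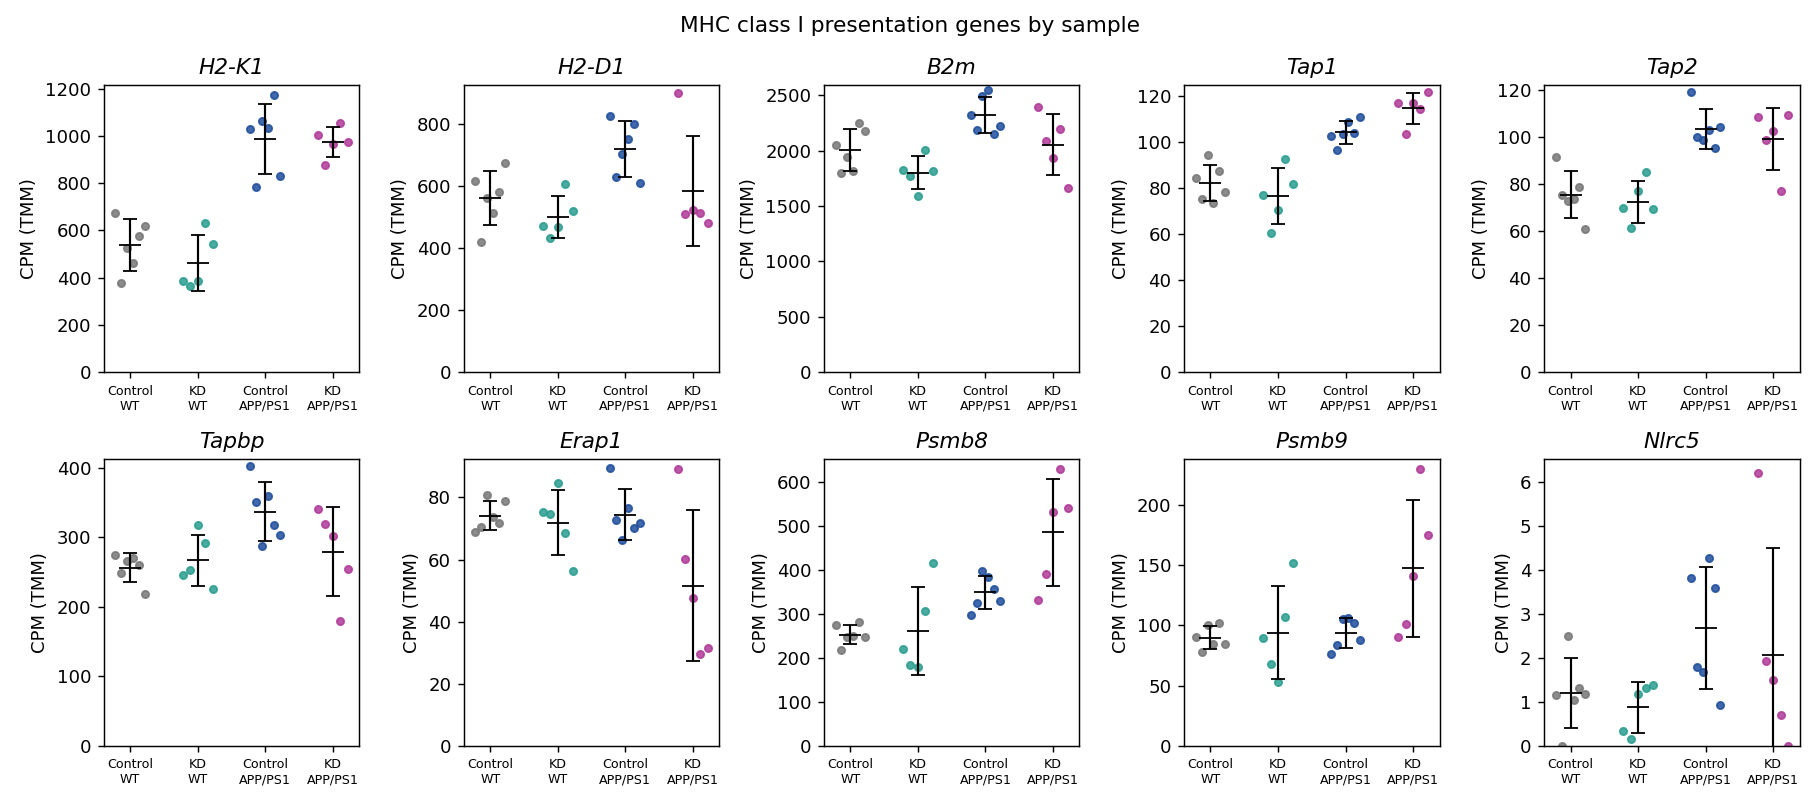
Normalised CPM (TMM-scaled, linear axes from 0) of the 10 genes in each library, by group. Points are libraries and bars are the mean and SD. H2-K1, from 782 to 1174 CPM in APP/PS1 mice and 366 to 674 CPM in WT mice, does not overlap between the genotypes, while Erap1, Psmb8 and Psmb9 are most spread in the KD APP/PS1 group.

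The first comparison asked how the amyloid genotype changed the pathway without knockdown (Control APP/PS1 against Control WT). H2-K1, Tap1 and Tap2 rose. The fitted change was above 0 for 10 of the 10 genes, where it was so for 9045 of all 18759 genes. For Erap1 and Psmb9 it was near 0 and its sign depended on the setting. Across the settings tried, Erap1 ran from -0.10 to 0.03 and Psmb9 from -0.04 to 0.30. The heavy chain H2-K1 ran from 375 to 674 CPM (median 549) in Control WT and from 782 to 1174 CPM (median 1032) in Control APP/PS1. The lowest APP/PS1 library was thus above the highest WT library. The log2 fold change was 0.88 ± 0.15 (SE, n = 6 and 6, adjusted p = 0.000241, edgeR quasi-likelihood test with Benjamini-Hochberg adjustment), a fold of 1.83.

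The peptide pump rose with both subunits. Tap1 ran from 73.8 to 94.3 CPM (median 81.5) in Control WT and from 96.6 to 111 CPM (median 104) in Control APP/PS1 (log2 fold change 0.34 ± 0.10 SE, edgeR adjusted p = 0.0213). Tap2 ran from 61.0 to 91.7 CPM (median 74.4) and from 95.4 to 119 CPM (median 101), with a log2 fold change of 0.45 ± 0.11 (edgeR adjusted p = 0.00698). Neither subunit overlapped between the groups. The call of Tap1 was lost without Control WT library 8 (adjusted p = 0.0504) or 12 (0.0569) and with offsets for exon length and GC content (0.26, adjusted p = 0.153). It was also lost without libraries 12, 15, 19 and 22 (0.29, edgeR adjusted p = 0.0697), the WT libraries highest in choroid plexus markers.

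Psmb8 and Tapbp did not overlap between the groups either, without passing the threshold. Psmb8 ran from 219 to 281 CPM (median 249) in Control WT and from 298 to 399 CPM (median 343) in Control APP/PS1 (0.46 ± 0.18, edgeR adjusted p = 0.0975). Tapbp ran from 218 to 274 CPM (median 263) and from 288 to 402 CPM (median 335), with 0.40 ± 0.13 (edgeR adjusted p = 0.0505). Both genes thus separated the groups library by library. DESeq2 called Tapbp (0.36, adjusted p = 0.0303), and limma voom called both.

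The remaining members overlapped between the groups. The second heavy chain, H2-D1, ran from 421 to 674 CPM (median 570) in Control WT and from 609 to 827 CPM (median 727) in Control APP/PS1 (0.36 ± 0.14, edgeR adjusted p = 0.120). B2m had medians of 1998 and 2273 CPM (0.21 ± 0.09, edgeR adjusted p = 0.169). Both H2-D1 and B2m were called higher by limma voom (adjusted p = 0.0172 and 0.0188). With only the 2 groups in the edgeR fit both passed as well (adjusted p = 0.0275 and 0.048). Erap1 was near 0 change at 0.01 ± 0.19 (95% interval -0.38 to 0.39) and Psmb9 at 0.05 ± 0.21 (-0.38 to 0.49). Nlrc5 was close to the detection limit, between 0 and 2.49 CPM in Control WT and between 0.92 and 4.26 CPM in Control APP/PS1, and its interval of -0.60 to 2.91 leaves the size of any change undetermined.

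Of the 10 members, 3 passed the threshold upward, where 5.99% of all genes did, and 0 passed it downward, where 4.48% did. Every Control APP/PS1 library was above every Control WT library for 5 members (H2-K1, Tap1, Tap2, Tapbp and Psmb8), where 5.33% of all genes were so. The median log2 fold change was 0.38 over the members and -0.02 over all genes. Without KD APP/PS1 library 4, which shares the estimate of spread, H2-D1 (adjusted p = 0.0357) and Tapbp (0.0379) passed as well, making 5, against 6.51% of all genes. The sums of microglial, border macrophage and endothelial markers were lower in every Control APP/PS1 library than in every Control WT library. Of the 5 astrocyte markers, whose sum overlapped between these groups (121 to 708 CPM in Control WT and 144 to 579 CPM in Control APP/PS1), Gfap, singled out after its values were seen, was higher without overlap, at 2.05 to 4.37 CPM in Control WT and 26.0 to 89.7 CPM in Control APP/PS1. Under knockdown it ran from 2.17 to 9.27 CPM in WT and from 31.6 to 110 CPM in APP/PS1 mice. The part of these markers in the changes was not tested. In bulk samples fewer cells of a type and less RNA per cell cannot be told apart.

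The second comparison asked for the same genotype effect under knockdown (KD APP/PS1 against KD WT). H2-K1, Tap1, Tap2 and Psmb8 rose. H2-K1 was at 387, 366, 384, 629 and 544 CPM in KD WT libraries 1, 2, 3, 19 and 22, and at 1003, 875, 964, 1053 and 974 CPM in KD APP/PS1 libraries 4, 18, 20, 21 and 23. The genotypes did not overlap, and KD WT libraries 19 and 22 were above the other 3. The log2 fold change was 1.08 ± 0.16 (SE, n = 5 and 5, edgeR adjusted p = 7.78e-05).

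Tap1 was at 77.2, 60.6, 70.4, 92.6 and 82.0 CPM in KD WT, and at 117, 104, 117, 114 and 122 CPM in KD APP/PS1, in the same order of libraries. These groups did not overlap, and the log2 fold change was 0.58 ± 0.11 (edgeR adjusted p = 0.000547). Tap2 was at 69.9, 61.2, 76.9, 85.1 and 69.4 CPM in KD WT and at 109, 98.9, 103, 77.1 and 109 CPM in KD APP/PS1. The Tap2 groups overlapped through library 21, with 0.45 ± 0.12 (edgeR adjusted p = 0.0109).

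Psmb8, which replaces Psmb5 in the immunoproteasome, was at 221, 184, 179, 307 and 416 CPM in KD WT and at 333, 390, 533, 630 and 542 CPM in KD APP/PS1. KD WT library 22 was above KD APP/PS1 libraries 4 and 18, and the log2 fold change was 0.89 ± 0.19 (edgeR adjusted p = 0.0028). With only the 2 groups in the fit, Psmb8 (adjusted p = 0.0576) and Tap2 (0.0768) did not pass. Psmb9 was at 89.7, 67.9, 53.3, 107 and 152 CPM in KD WT and at 90.5, 102, 141, 229 and 175 CPM in KD APP/PS1 (0.65 ± 0.23, edgeR adjusted p = 0.0597). DESeq2 (0.67, adjusted p = 0.0282) and limma voom (0.68, 0.0160) called Psmb9 higher in this comparison. In both subunits, libraries 19 and 22 were the highest of the KD WT group. KD WT library 22, with the highest Psmb8 and Psmb9 of its group, also had the group's lowest length slope (-0.23). Choroid plexus markers summed to 758 and 429 CPM in KD WT libraries 19 and 22 (scaled with library 10 kept). They summed to 50.7, 10.3 and 11.1 CPM in libraries 1, 2 and 3, and their part was not tested.

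Thus 4 of 10 members passed upward, against 9.77% of all genes, and 0 downward, against 6.41%, and the groups did not overlap for 2 members (H2-K1 and Tap1), against 4.18% of all genes. The members' median was 0.52 and that of all genes -0.07. H2-D1 (0.23 ± 0.16, edgeR adjusted p = 0.346), B2m (0.19 ± 0.10, 0.216), Tapbp (0.07 ± 0.14, 0.811), Erap1 (-0.48 ± 0.20, 0.109) and Nlrc5 (1.25 ± 0.93, 0.393) did not pass. Of these, limma voom called Erap1 lower (-0.56, adjusted p = 0.0174). Without library 4 there were 5 higher (Psmb9 added, 0.78, adjusted p = 0.0143, with 13% of all genes) and 1 lower (Erap1, -0.77, adjusted p = 0.00168, with 12.6%). Psmb9 also passed without library 18 (0.75, edgeR adjusted p = 0.0368) or 22 (0.895, 0.00519). Within libraries 18 to 23 it was at 0.31 (0.76). KD WT libraries 1 to 3 carry low numbers and KD APP/PS1 libraries, other than 4, numbers 18 to 23. Within libraries 18 to 23 (4 against 2) no member passed, with H2-K1 at 0.71 (adjusted p = 0.0689), Tap1 at 0.38 (0.358), Tap2 at 0.33 (0.557) and Psmb8 at 0.53 (0.353). With libraries 18 to 23 as a covariate and all libraries kept, the same 4 passed, with H2-K1 at 0.97 (adjusted p = 0.000132), Tap1 at 0.52 (0.00134), Tap2 at 0.44 (0.0218) and Psmb8 at 0.62 (0.00262).

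**Figure D2:**
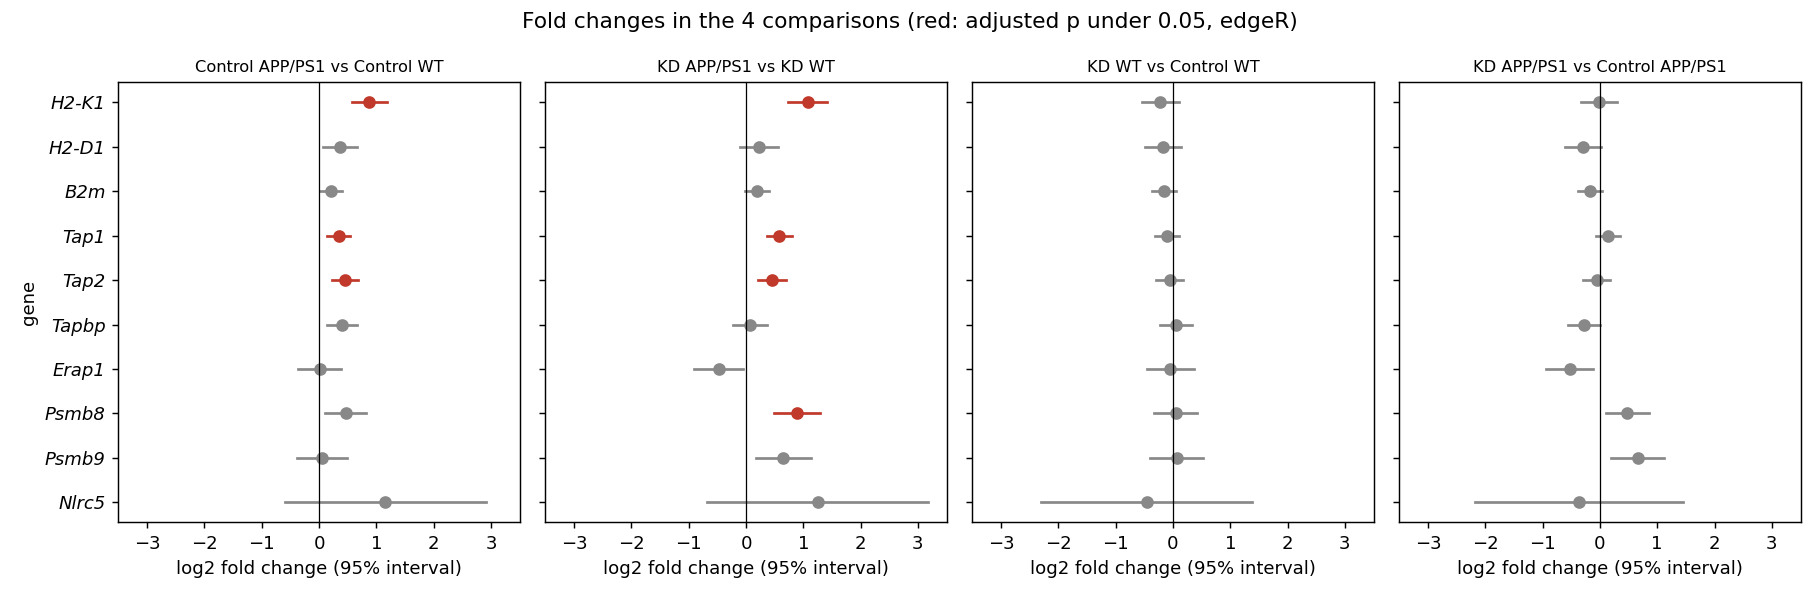
Log2 fold changes (edgeR) of the 10 genes in the 4 comparisons, with 95% intervals, and red where the adjusted p was under 0.05. H2-K1 is at 0.88 and 1.08 in the genotype comparisons and at -0.22 and -0.02 in the knockdown comparisons, where no gene is red.

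The third comparison asked what knockdown changed in WT mice (KD WT against Control WT). No member passed, as no gene did (0%; edgeR), and 0 members had an unadjusted p under 0.05, against 5.92% of all genes. DESeq2 and limma voom called 0 members as well. H2-K1 had -0.22 (95% interval -0.54 to 0.10), Tap1 -0.10 (-0.31 to 0.10), Tap2 -0.06 (-0.29 to 0.18) and Psmb8 0.05 (-0.33 to 0.43). The members ranged from -0.46 (Nlrc5, -2.30 to 1.38) to 0.06 (Psmb9, -0.40 to 0.52). Without KD WT libraries 19 and 22, H2-K1 was at -0.52 (adjusted p = 0.508) and Psmb8 at -0.40 (0.552).

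The fourth comparison asked what knockdown changed in APP/PS1 mice (KD APP/PS1 against Control APP/PS1). No member passed, as no gene did (0%; edgeR), and 3 members had an unadjusted p under 0.05 (Psmb8, Psmb9 and Erap1), where 20.6% of all genes did. Psmb9 had a log2 fold change of 0.66 ± 0.22 and Psmb8 0.48 ± 0.18, and Erap1 -0.53 ± 0.20 (each with an edgeR adjusted p of 0.205). limma voom called 0 members. DESeq2 called Psmb9 (0.71, adjusted p = 0.0495) when its independent filtering was set to the threshold of 0.05, and 0 members when it was set to 0.1 or switched off.

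Erap1 was at 89.2, 60.0, 47.5, 29.7 and 31.5 CPM in KD APP/PS1 libraries 4, 18, 20, 21 and 23, and between 66.2 and 89.4 CPM (median 72.3) in Control APP/PS1. Library 4 was among the Control values and the other 4 libraries were below all of them. Psmb9 had the reverse order, with 90.5 CPM in library 4 and 229 CPM in library 21, against 76.5 to 106 CPM (median 94.6) in Control APP/PS1. H2-D1 was at 902 CPM in library 4 and between 480 and 524 CPM in the other 4, against 609 to 827 CPM in Control APP/PS1.

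Without library 4, Erap1 (-0.82 ± 0.16) and H2-D1 (-0.51 ± 0.13) fell (both with an edgeR adjusted p of 0.0202), 2 members where 9.07% of all genes fell, and Psmb9 (0.79 ± 0.22, adjusted p = 0.0228) and Psmb8 (0.59 ± 0.18, 0.0329) rose, 2 members where 7.34% of all genes rose. H2-K1 stayed at -0.03 ± 0.17 (adjusted p = 0.944). The direction thus differed among the members, with the heavy chain H2-D1 and the trimming enzyme lower and the proteasome subunits higher. With libraries 18 to 23 as a covariate, the contrast rests within the APP/PS1 mice on library 4, and Psmb8 was at -0.18, Psmb9 at -0.07 and Erap1 at -0.08 (each adjusted p = 1).

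Choroid plexus markers and the length slope also differed between library 4 and the other libraries of this group. The markers summed to 2.28 CPM in library 4 and to 269, 331, 86.1 and 477 CPM in libraries 18, 20, 21 and 23 (scaled with library 10 kept). The part of these markers in the changes was not tested. KD APP/PS1 library 4 had a slope of 0.11, and libraries 18, 20, 21 and 23 had -0.09, -0.19, -0.38 and -0.34. Erap1 has 8103 bp of annotated exon, and Psmb8 and Psmb9 have 3414 and 3800 bp. H2-D1, which fell without library 4, has 2992 bp. The part of the length slope in these changes was tested only through the offsets for length and GC content. Library 10, which was left out, also had a low slope (-0.31), with Erap1 at 38.0 CPM, Psmb8 at 687 CPM and Psmb9 at 214.5 CPM. With offsets for exon length and GC content, Erap1 was at -0.41 (adjusted p = 0.181), Psmb8 at 0.36 (0.204) and Psmb9 at 0.60 (0.18). With these offsets and without library 4, Erap1 (-0.63, adjusted p = 0.0166), H2-D1 (-0.69, 0.0162), B2m (-0.64, 0.0162) and Psmb9 (0.72, 0.0263) passed and Psmb8 (0.45, 0.0529) did not. The share of all genes passing in that fit is not given here. Without library 4 and without offsets it was 7.34% upward and 9.07% downward.

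**Figure D3:**
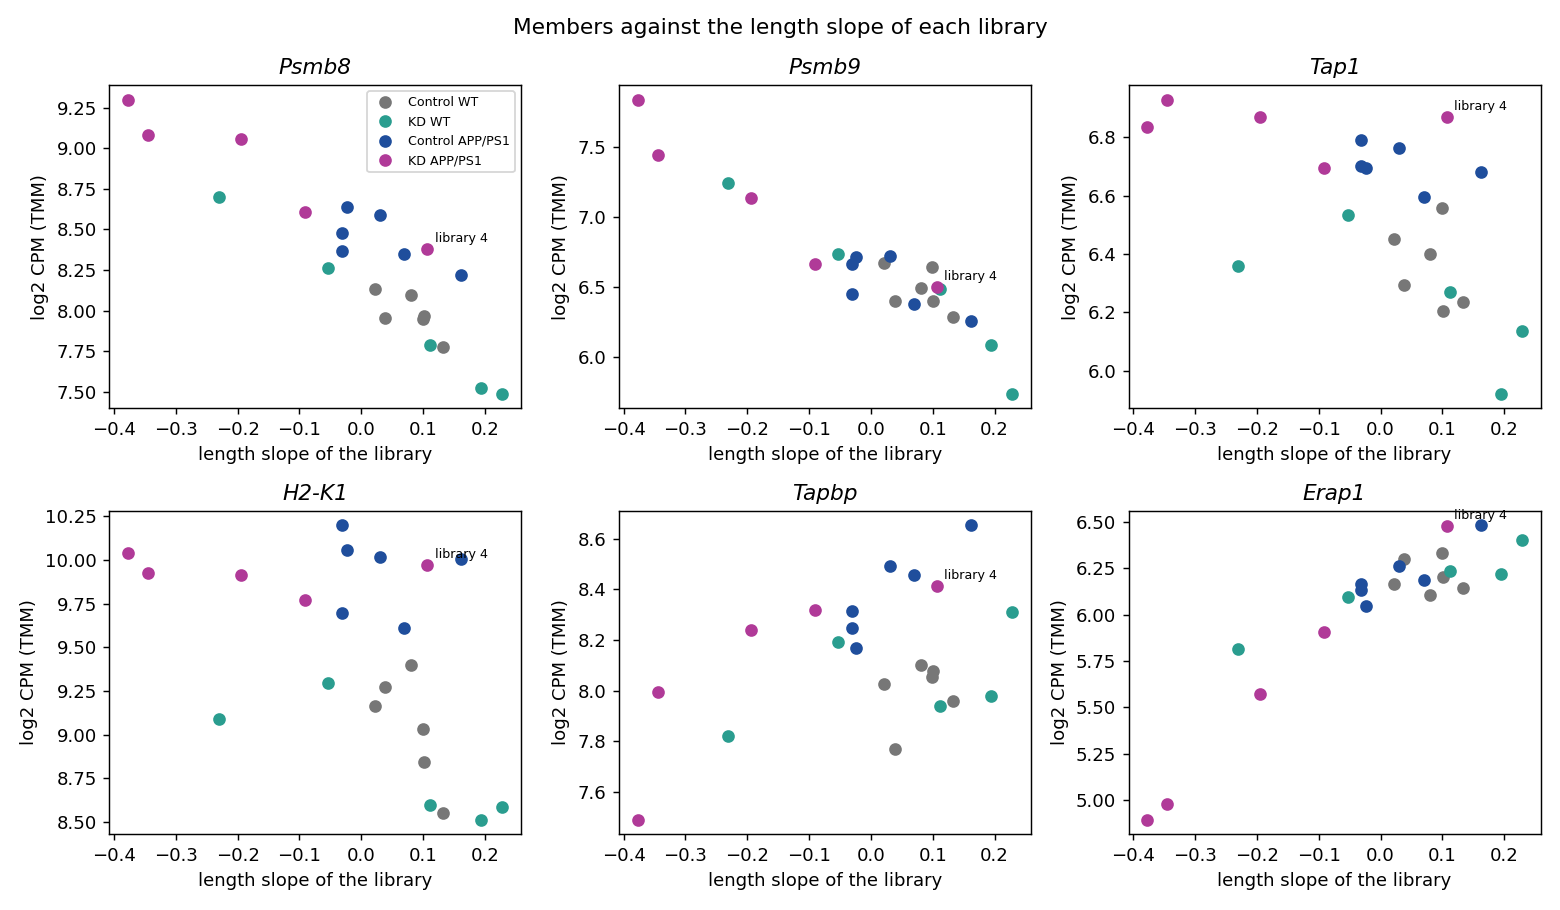
Log2 CPM of 6 members against the length slope of each library (change in log2 CPM per doubling of exon length), coloured by group. Psmb8 and Psmb9 are highest and Erap1 is lowest in the KD APP/PS1 libraries with slopes of -0.38 and -0.34, while library 4, at 0.11, lies within the range of the Control APP/PS1 libraries for these 3 genes.

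Whether knockdown altered the genotype effect was tested as an interaction. No member passed, as no gene did (0%; edgeR), and 0 members had an unadjusted p under 0.05, against 9.08% of all genes. DESeq2 and limma voom called 0 members as well. The lowest member p was that of Psmb9 (0.60 ± 0.32, unadjusted 0.0717, edgeR adjusted p = 0.544), and H2-K1 had 0.20 (95% interval -0.25 to 0.65). Without library 4, 4 members had an unadjusted p under 0.05, where 20.8% of all genes did: Erap1 (-0.78 ± 0.22, edgeR adjusted p = 0.168), Psmb9 (0.73 ± 0.30, 0.194), Tapbp (-0.41 ± 0.19, 0.222) and Psmb8 (0.54 ± 0.25, 0.226). No gene passed after adjustment there either (0%; edgeR).

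Immunoproteasome subunits were set against the constitutive subunits they replace by the log2 ratio of counts with 0.5 added, in 6 exact two-sided permutation tests over libraries with Benjamini-Hochberg adjustment. The ratio of Psmb9 to Psmb6 was lower in amyloid mice. It ran from -0.75 to -0.29 in Control WT and from -1.34 to -1.02 in Control APP/PS1, with no overlap. The means were -0.55 ± 0.19 and -1.20 ± 0.13 (SD, n = 6 each), a difference of -0.65 (exact p = 0.00216, the smallest this design allows, adjusted p = 0.013). Psmb6 itself rose from 132 to 215 CPM (log2 fold change 0.70 ± 0.21, edgeR adjusted p = 0.0335) while Psmb9 was at 89.8 and 93.3 CPM.

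The ratio of Psmb8 to Psmb5 was 2.35 ± 0.23 in Control WT and 2.69 ± 0.21 in Control APP/PS1 (difference 0.34, exact permutation p = 0.026, adjusted p = 0.0779), and the groups overlapped. Without Control WT library 14 the difference was 0.43 (exact test, adjusted p = 0.013). The ratio of Psmb10, the third immunoproteasome catalytic subunit, to Psmb7 differed by -0.14 (exact permutation p = 0.175, adjusted p = 0.351). Of the 3 pairs, Psmb9/Psmb6 passed in this comparison. Between KD APP/PS1 and Control APP/PS1 the differences were -0.01, 0.10 and -0.03 for Psmb8/Psmb5, Psmb9/Psmb6 and Psmb10/Psmb7 (exact permutation p = 0.939, 0.377 and 0.771, smallest possible 0.00433). There Psmb5 (0.59 ± 0.24), Psmb6 (0.56 ± 0.22), Psmb7 (0.53 ± 0.17) and Psmb10 (0.48 ± 0.17) had log2 fold changes near those of Psmb8 and Psmb9 (each edgeR adjusted p = 0.205).

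**Figure D4:**
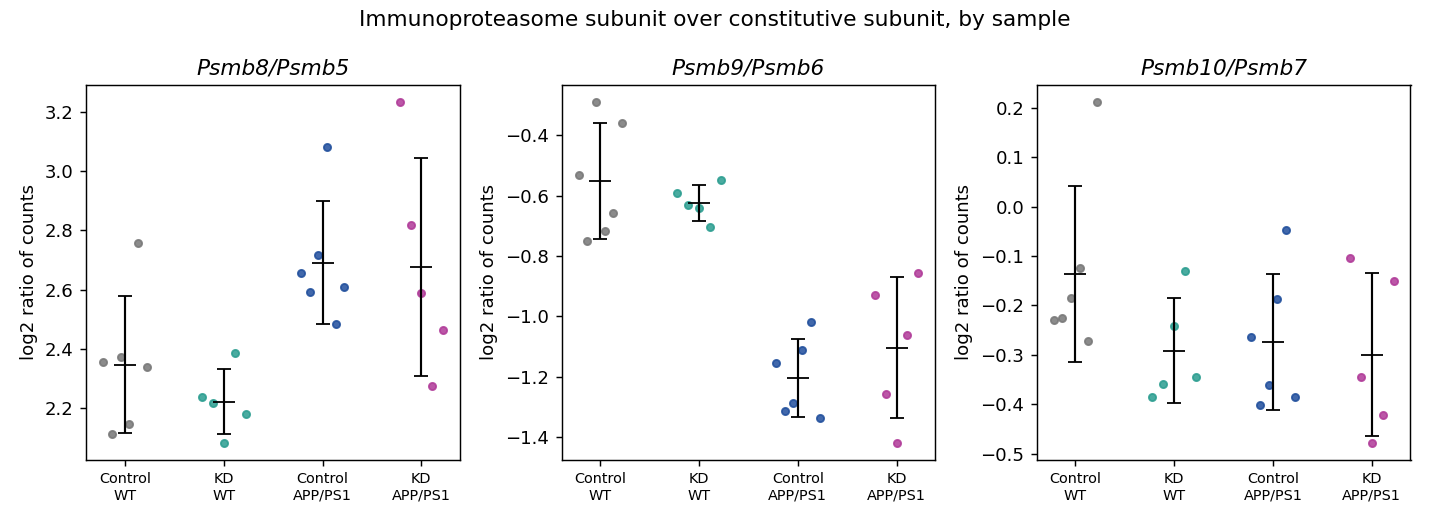
Log2 ratio of immunoproteasome to constitutive subunit counts by library, with the mean and SD of each group. Psmb9/Psmb6 lies between -1.42 and -0.85 in APP/PS1 libraries and between -0.75 and -0.29 in WT libraries.

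Other genes of the pathway were taken from a list of 51, of which 50 were tested. In Control APP/PS1 against Control WT, 9 rose of the 50, where 5.99% of all genes did, and 3 fell, where 4.48% of all genes did, a share near the list's own, and the list's median was 0.05. Among the nonclassical heavy chains, H2-T22 (0.67), H2-T23 (0.66) and H2-M3 (0.63) rose, as did the class I-like molecule Mr1 (0.67) and the proteasome activator subunit Psme1 (0.47). The interferon gamma receptor chain Ifngr1 fell (-0.82 ± 0.10, edgeR adjusted p = 4.78e-06), as did Fcgrt (-0.45), the neonatal Fc receptor. None of 7 transcription factors of class I promoters passed, with Irf1 at 0.21 (adjusted p = 0.751) and Rfx5 at -0.25 (0.501).

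In KD APP/PS1 against KD WT, 12 of the 50 rose, where 9.77% of all genes did, and 6 fell, where 6.41% did, with a median of 0.17. H2-M3 (1.29), H2-T22 (1.17), Psmb6 (1.14), H2-T23 (0.95) and the activator subunit Psme2 (0.93) rose. H2-T24 (-1.12), Irf2, a repressor of interferon-driven genes, (-0.82), Ifngr1 (-0.80) and Rfx5 (-0.68) fell. In both knockdown comparisons 0 of the 50 passed (edgeR), with 1 higher and 1 lower in WT and 7 higher and 9 lower in APP/PS1 at an unadjusted p under 0.05, where 5.92% and 20.6% of all genes were in either direction. Nonclassical class I genes share sequence with near copies, and their counts are uncertain to that extent.

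The members did not vary as 1 block. Across the 22 libraries, the correlation of a gene's log2 CPM with the mean of the other 9 was 0.88 for H2-K1, 0.79 for H2-D1, 0.78 for Tap1, 0.76 for Tap2 and 0.73 for B2m, with 0.61 for Nlrc5, 0.49 for Psmb8, 0.47 for Tapbp, 0.12 for Psmb9 and -0.15 for Erap1. After the group means were removed it was 0.77 for H2-D1, 0.69 for H2-K1 and for Nlrc5, 0.56 for Tap1, 0.54 for B2m and 0.31 for Tap2. It was then 0.18 for Tapbp and for Erap1, whose sign thus differed from that across all libraries, 0.09 for Psmb8 and -0.09 for Psmb9. Among 11828 other genes with a mean of at least 1 CPM, the 4 most like the members' mean were Sdc3 (Pearson r = 0.93), Prr5l (0.92), Phf11b (0.90) and Axl (0.90). The libraries share genotype groups, and these values are a description. Axl averaged 98.5 CPM in Control WT and 648 CPM in Control APP/PS1.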

How the data were processed

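RNA of CD11b+ hippocampal cells was sequenced as paired-end poly(A) libraries. The authors trimmed reads (Trim Galore 0.6.7), aligned them with STAR to mm39 and deposited raw counts per gene, which they did not normalize. Their table of normalised values was not used. Libraries were grouped by their labels, and library 10 was identified as the sample removed by the study from its absence in the study's heat map.

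The filter kept 18759 genes (5 or more counts in 3 or more samples). TMM scaling and the quasi-likelihood test of edgeR 4.0.16 (R 4.3.3) were applied in a single fit of the 4 groups, and Benjamini-Hochberg adjustment covered the 18759 genes (threshold 0.05). Alternatives used DESeq2 1.42.0 and limma 3.58.1, and ratios used scipy 1.17.1. Exon lengths came from GENCODE M39 on GRCm39. The fits were run on simulated data whose set changes were larger than those called among the members. Power at the sizes reported here was therefore not tested.

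The members and gene lists were chosen with earlier results of these data known. All 10 members are named, and of the pathway list the 8 largest changes called per comparison with Psmb5, Psmb6, Psmb7, Psmb10, Irf1 and Rfx5. Some genes that the naming rules select are not reported here. Total counts ran from 31128643 to 54872491, and a negative length slope or low depth lowers the counts of long or weak genes. The study describes the libraries of a group as biological replicates from separate mice, which the labels do not state. Within-group pairs differed by at least 32.5 in chi-square per degree of freedom, beyond sampling noise.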

Additional observations from a re-analysis of the deposited data

Results flagged for a closer look

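Single libraries stood far from the rest of their group in 3 of 52 groups of values examined, and chance sets apart about 1 in 20. H2-D1 was at 902 CPM in KD APP/PS1 library 4, against 480 to 524 CPM in the other 4 libraries. Tap2 was at 119 CPM in Control APP/PS1 library 5, against 95.4 to 104 CPM in the others. The log2 ratio of Psmb10 to Psmb7 was 0.21 in Control WT library 15, against -0.27 to -0.12 in the others. The causes were not tested.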

How the results depend on the processing

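No paired analysis was possible because the library numbers are unique and no number is shared between groups. In Control APP/PS1 against Control WT, 3 members passed upward with edgeR, where 1124 of all genes did. With limma voom 7 members passed upward, where 2079 of all genes did. There were 7 with only the 2 groups in the fit, 5 with libraries 18 to 23 as a covariate, and 0 with an absolute log2 fold change above 1 required as well. In KD APP/PS1 against KD WT, 4 passed upward, and 1 did with that fold limit, 2 with only the 2 groups in the fit (Psmb8 and Tap2 lost) and 0 within libraries 18 to 23. There limma voom called 1 member lower (Erap1), where 1947 of all genes were lower. Length and GC offsets without library 4 called 2 lower there, among them B2m, whose change turned from 0.19 to -0.35 (adjusted p = 0.0317). In KD APP/PS1 against Control APP/PS1, DESeq2 called 1 higher, and the offsets without library 4 called 1 higher and 3 lower. The share of all genes called is not given here for the offsets, the covariate or the fold limit. Nor is it given for the fits of only 2 groups or within libraries 18 to 23. The counts in those settings are thus no result about the members. The DESeq2 call depends on its independent filtering, since 449 genes rose and 131 fell with it set to 0.05, 24 and 7 with it set to 0.1, and 42 and 7 without it. The default of 0.1 was run first and the setting was changed to match the threshold after those counts had been seen, so all 3 are given. The causes of these shifts were not tested. The length and GC offsets, the other DESeq2 filters and the library subsets other than single removals were chosen after seeing the data.

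Leaving out each library of the groups compared in turn, between 2 and 4 members passed upward in Control APP/PS1 against Control WT, and between 4 and 5 upward and 0 and 1 downward in KD APP/PS1 against KD WT. Leaving out library 4, which is in neither group of the first of these, gave 5 there. In KD APP/PS1 against Control APP/PS1 between 0 and 2 passed in each direction, above 0 without library 4 alone. The Psmb8/Psmb5 difference between Control APP/PS1 and Control WT lay between 0.27 and 0.43. H2-K1 and Tap2 passed in 27 of 27 fits of Control APP/PS1 against Control WT, leaving aside the fold limit. Keeping library 10 called 4 members higher in that comparison. The share of all genes called is not given here for that fit or for single removals other than library 4. These counts are thus no result about the members. Nlrc5 had between 0 and 297 counts per library, and its spread between libraries was not traced to a cause.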
